A study of Mus musculus with 2 samples.

Results

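The genes studied here encode kinesins, cytoplasmic dynein and dynactin, the proteins that move cargo and chromosomes along microtubules. They were chosen by name alone: a gene was kept if its symbol began with Kif and a digit, Kifc, Klc and a digit, Dync, Dynl or Dctn, or was Kifap3, and if it had at least 1 protein-coding transcript. This gave 69 of the 45578 genes in the deposited table, and of the 21874 genes with a coding transcript. Ribosome-protected fragments (footprints) came from brain polysomes of 2 mice at postnatal day 5. Both animals were controls, with the genotype Smn+/-; SMN2tg/0 on the FVB background, so all of the tissue came from animals that were heterozygous for Smn and carried an SMN2 transgene. They formed 1 group of biological replicates, and the study as used here compared no genotypes or treatments.

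Most kinesins walk towards the plus ends of microtubules, which in an axon point away from the cell body, and cytoplasmic dynein with its activator dynactin walks the other way. Kinesins of the transport families carry vesicles, mitochondria and other cargo. A separate set of kinesins builds the mitotic spindle, moves chromosomes and closes the cleavage furrow, and is made mainly by dividing cells. Neurons of the newborn brain are postmitotic and are extending axons, while progenitors of glia and of cerebellar granule cells still divide.

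The libraries held 1866831 footprints in replicate 1 and 5261878 in replicate 2, so values of rare genes were less precise in replicate 1. Levels are given as CPM, the count scaled to a library of 1000000 footprints. Taking 3 counts as the floor, a gene without footprints could still lie at up to 1.61 CPM in the shallower library and 0.570 CPM in the deeper. These limits and all intervals cover counting error only. Summed marker genes of neurons gave 6789 CPM in replicate 1 and 5563 CPM in replicate 2, those of dividing cells 217 and 350 CPM, and those of ependymal and other multiciliated cells 65.9 and 64.0 CPM. No gene of these 3 lists was at 0 in both libraries. In a whole tissue, fewer cells of a type and less RNA per cell cannot be told apart.

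Together the 69 genes took 0.985% ± 0.0118 of all footprints (SD, n = 2), with 18538 footprints in replicate 1 and 51371 in replicate 2. At least 10 footprints in both libraries were found for 56 of the 69, against 55.2% of all genes with a coding transcript. Kif2b, a spindle kinesin, and Kif12 had no footprint in either library. Kif6 had 1 footprint in replicate 1 and 8 in replicate 2, Klc3 had 3 and 11, and Dynlrb2 had 7 and 12. These 5 genes fell below the mean count of 10 required for the comparison of the libraries, and the other 64 passed.

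Levels of different genes were set against each other as footprint density, which is CPM per kilobase of the longest annotated coding sequence of the gene. Footprints were added up over all transcripts of a gene, which assumes that each fragment was counted on 1 transcript. How fragments shared by transcripts were counted is not given in the sources used here; if they were counted on each, the summed densities of genes with several transcripts are too high and the tests on their counts too sharp. The 5 longest coding transcripts of Dctn1, for example, had 162 to 179 footprints each in replicate 1. If each fragment was counted once, the highest transcript alone leaves out footprints of genes with several transcripts, and their densities are then too low. Values with the highest transcript alone are therefore given for several of the ratios where they turn an order. The transport kinesins, the spindle kinesins and the dynein and dynactin subunits occupied different parts of the density range, which the plot of all members shows. Among the 13317 coding genes that averaged 10 or more footprints, the median density was 23.5.

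**Figure D1:**
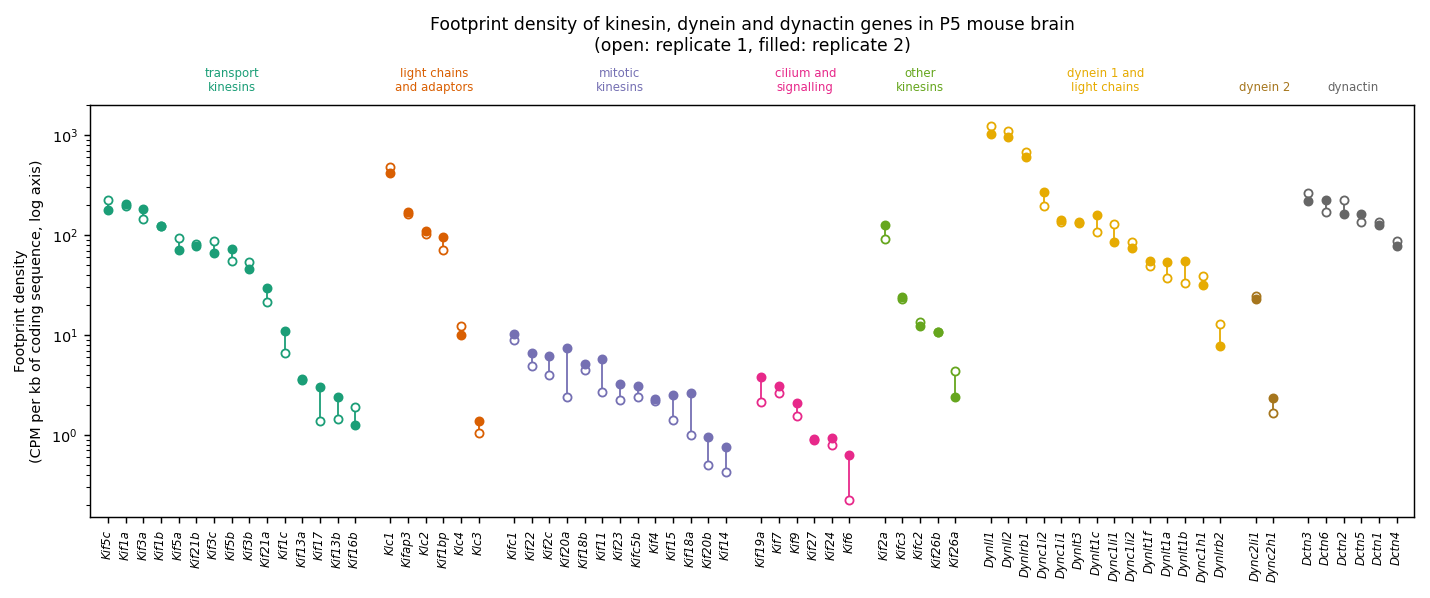
Footprint density (CPM per kilobase of coding sequence, log axis) of each member with at least 1 footprint, ordered within its role; open points are replicate 1, filled points replicate 2, and a line joins the pair. Kif2b and Kif12, at 0 in both libraries, are not drawn; every spindle kinesin lies at 10.3 or below, while 10 of the 15 transport kinesins lie above all of them in both libraries.

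The transport list held 15 kinesins of the families that carry organelles and vesicles. Kif5c, a kinesin-1 heavy chain enriched in neurons, had a density of 226 in replicate 1 and 178 in replicate 2. Kif1a, a kinesin-3 that carries synaptic vesicle precursors, had a density of 194 and 203. Kif3a, the shared subunit of heterotrimeric kinesin-2, had a density of 147 and 184. These led the list, at percentiles of 91.04 to 93.2 among all measured coding genes. Their order depended on the count. On coding transcripts alone Kif1a was at 1.08 times Kif5c in replicate 1 and 1.47 times in replicate 2. With the highest transcript alone it was at 0.259 and 0.357 times. Kif1b, a second kinesin-3 with mitochondrial and vesicle cargo, followed at 124 and 123.

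Below them lay Kif5a, another neuronal kinesin-1, at 93.3 and 71.0, Kif3c at 87.8 and 66.3, Kif21b at 81.1 and 78.7, and Kif5b, the kinesin-1 of all tissues, at 54.5 and 72.5. Kif3b was at 53.2 and 45.5 and Kif21a at 21.6 and 29.3. The remaining 5, Kif1c, Kif13a, Kif17, Kif13b and Kif16b, had mean densities of 1.58 to 8.75. Mean density therefore spanned from 1.58 for Kif16b to 202 for Kif5c within 1 functional list.

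The mitotic list held 14 kinesins, and none reached the median density of coding genes. The highest was Kifc1, a minus-end motor of the spindle, with 34 footprints and a density of 8.99 in replicate 1, and 110 footprints and 10.3 in replicate 2. Kif22, a chromosome-arm kinesin, had 18 and 69 footprints, or densities of 4.86 and 6.61. Kif2c, which takes microtubules apart at centromeres, had 16 and 71 footprints, or 3.96 and 6.23. Kif14 was the lowest with footprints, at 4 and 20, or densities of 0.426 and 0.756. Kifc1 shares much sequence with Kifc5b, a near copy with 9 and 33 footprints, so the split of fragments between these genes is uncertain.

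Summed over each list, the density of transport kinesins was 29.2 times that of spindle kinesins in replicate 1 and 18.9 times in replicate 2, a mean ratio of 24.0 ± 7.30 (SD, n = 2). The sums were 1097 against 37.6 in replicate 1 and 1072 against 56.9 in replicate 2, so the transport sum was nearly the same in both animals and the spindle sum was not. The list medians were 54.5 against 2.32 in replicate 1 and 66.3 against 3.18 in replicate 2. The lists overlapped at their edges. In replicate 1, 10 of the 15 transport kinesins lay above every spindle kinesin, and in replicate 2, 11 did; Kif13a, Kif17, Kif13b and Kif16b lay within the spindle range in both, and Kif1c in replicate 1. With Kif2a and Cenpe added to the spindle list the ratio was 7.14, since Kif2a, a microtubule depolymerase of both neurons and spindles, had a density of 91.0 in replicate 1 and 126 in replicate 2. With 1 transcript per gene the ratio was 16.2.

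Promoters of the spindle kinesins were examined because spindle genes share elements that limit their expression to dividing cells. The CCAAT box (CCAAT) and the cell cycle homology region (TTTGAA) were searched on both strands of the 250 bases before the transcription start in RefSeq, GRCm38.p6. Entries were found for 52 of the 69 members. A gene with several entries was counted for an element if any of its entries held it. The windows shown are from 1 entry per gene. CCAAT was present for 9 of 13 spindle kinesins and 3 of 11 transport kinesins, and TTTGAA for 5 of 13 and 1 of 11. Among the 15917 coding genes of the table with an entry, 39.3% held CCAAT, 16.1% TTTGAA and 6.75% both. CCAAT was also present for 3 of 4 dynactin genes, 3 of 4 kinesin adaptors and light chains and 3 of 5 cilium and signalling kinesins. It was present for 2 of 10 dynein 1 genes, 1 of 4 other kinesins and 1 of 1 dynein 2 genes. Kif27, of the cilium list, and Kif26b, of the other kinesins, held both elements. No transport kinesin had both, and the spindle kinesins that did were Kif11, Kif14 and Kif22. Their 250 bases are shown with those of Kif5c, the transport kinesin of highest mean density on summed counts, which held neither. Capitals mark every match on either strand (ATTGG and TTCAAA are the reverse complements).
Kif11 (chr19:37376132-37376381, forward strand): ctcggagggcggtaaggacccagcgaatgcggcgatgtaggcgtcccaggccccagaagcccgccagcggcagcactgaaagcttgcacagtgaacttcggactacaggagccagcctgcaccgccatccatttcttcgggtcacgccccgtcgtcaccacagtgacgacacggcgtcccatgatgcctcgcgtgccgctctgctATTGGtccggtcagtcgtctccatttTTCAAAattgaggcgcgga
Kif14 (chr1:136467598-136467847, forward strand): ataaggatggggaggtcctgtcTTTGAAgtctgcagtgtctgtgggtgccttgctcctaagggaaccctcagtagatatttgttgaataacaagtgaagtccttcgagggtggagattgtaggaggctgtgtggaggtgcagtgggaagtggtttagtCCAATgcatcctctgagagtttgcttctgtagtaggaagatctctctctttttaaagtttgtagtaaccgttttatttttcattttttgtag
Kif22 (chr7:127042421-127042670, reverse strand): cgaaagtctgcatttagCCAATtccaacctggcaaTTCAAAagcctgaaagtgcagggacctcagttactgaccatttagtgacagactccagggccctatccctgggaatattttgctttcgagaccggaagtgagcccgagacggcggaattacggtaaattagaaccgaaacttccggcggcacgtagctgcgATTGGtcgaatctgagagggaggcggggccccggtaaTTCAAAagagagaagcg
Kif5c (chr2:49619036-49619285, forward strand): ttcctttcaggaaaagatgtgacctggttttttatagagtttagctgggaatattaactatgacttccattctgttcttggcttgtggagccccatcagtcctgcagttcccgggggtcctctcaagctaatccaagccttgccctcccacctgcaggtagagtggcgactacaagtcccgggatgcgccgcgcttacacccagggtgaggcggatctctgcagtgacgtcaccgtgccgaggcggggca
In Kif11 a CCAAT match began 45 bases and a TTTGAA match 19 bases before the start, and in Kif22 the nearest pair began at 54 and 17 bases. In Kif14 the matches began 92 and 228 bases before the start. The Kif14 window ends in a T-rich stretch and the bases ag, and whether it acts as a promoter was not tested. The matches are letters in a window, and binding to them was not measured.

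Kinesin-1 is built from heavy chains, which hold the motor, and light chains, which bind cargo. The heavy chains Kif5a, Kif5b and Kif5c had a summed density of 374 in replicate 1 and 322 in replicate 2. Kif5c gave 57.9% ± 3.58 of it, Kif5a 23.5% ± 2.05 and Kif5b 18.6% ± 5.63 (SD, n = 2). Of the light chains, Klc1 had a density of 476 and 420, Klc2 103 and 109, Klc4 12.4 and 10.01, and Klc3 1.05 and 1.37. Klc1 thus gave 79.03% ± 1.81 of the light-chain density. Light chains exceeded heavy chains 1.59 times in replicate 1 and 1.68 times in replicate 2, but this order rested on summing the transcripts of a gene: with the highest transcript alone the mean ratio was 0.616.

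Heterotrimeric kinesin-2 joins Kif3a to either Kif3b or Kif3c, with Kifap3 as its cargo-binding subunit. Kifap3 and Kif3a had nearly equal densities, with a ratio of 1.12 in replicate 1 (exact 95% interval 1.002 to 1.25) and 0.927 in replicate 2 (0.872 to 0.985). The partner subunits Kif3b and Kif3c summed to 141 in replicate 1 and 112 in replicate 2, against 147 and 184 for Kif3a. With the highest transcript alone Kif3a was the lower subunit: Kifap3 was at 2.60 and 2.26 times Kif3a, Kif3b at 1.65 and 1.16 times and Kif3c at 2.72 and 1.69 times. Kif3a has 8 annotated transcripts, Kifap3 2, and Kif3b and Kif3c 1 each, so this order depends on how shared fragments were counted. Kif3c exceeded Kif3b 1.65 times in replicate 1 (1.40 to 1.95) and 1.46 times in replicate 2 (1.31 to 1.63). Kif1bp, a kinesin-binding protein that regulates the motors and is no motor itself, had a density of 71.4 and 96.8.

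Cytoplasmic dynein 1 carries a pair of very long heavy chains, encoded by Dync1h1, with smaller intermediate, light intermediate and light chains. Dync1h1 had 1024 footprints in replicate 1 and 2327 in replicate 2. Spread over a coding sequence of 4645 codons, this was a density of 39.4 and 31.7, with the lowest mean (35.5 ± 5.39, SD, n = 2) of the 13 dynein 1 chains tested. Its mean density ranked 1 among the 72 measured genes with coding sequences of at least 10000 nucleotides, whose median was 3.56, and it ranked 1 in replicate 1 and 3 in replicate 2. The transcript Dync1h1-001 held 90.5% and 90.07% of the gene's footprints.

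All other dynein 1 chains in the plot of subunits had higher densities than Dync1h1 in both libraries; of those not drawn, Dynlt1a and Dynlt1b lay below it in replicate 1, at 37.6 and 32.9, and Dynlrb2 in both. The light intermediate chains Dync1li1 and Dync1li2, each with a single annotated transcript, stood at 3.32 and 2.19 times Dync1h1 in replicate 1, and at 2.72 and 2.32 times in replicate 2. Per kilobase of transcript, Dync1li2 lay below Dync1h1, at a mean of 25.5 against 34.5, and Dync1li1 above it, at 65.5. Per kilobase of coding sequence, the intermediate chains, which bind dynactin, stood higher than the light intermediate chains. Dync1i1, the neuronal form, was at 3.41 times Dync1h1 in replicate 1 (3.06 to 3.80) and 4.45 times in replicate 2 (4.16 to 4.75). Dync1i2, the form of all tissues, was at 4.94 times (4.48 to 5.45) and 8.60 times (8.13 to 9.09). Summed, the intermediate chains gave 10.7 ± 3.32 times the Dync1h1 density (SD, n = 2), and 2.06 times with the highest transcript of each gene alone. Taken singly on that transcript, the order turned in replicate 1. Dync1i1 was at 0.932 times Dync1h1 there (0.761 to 1.13) and Dync1i2 at 0.698 times (0.555 to 0.868). In replicate 2 they were at 1.36 and 1.13 times.

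**Figure D2:**
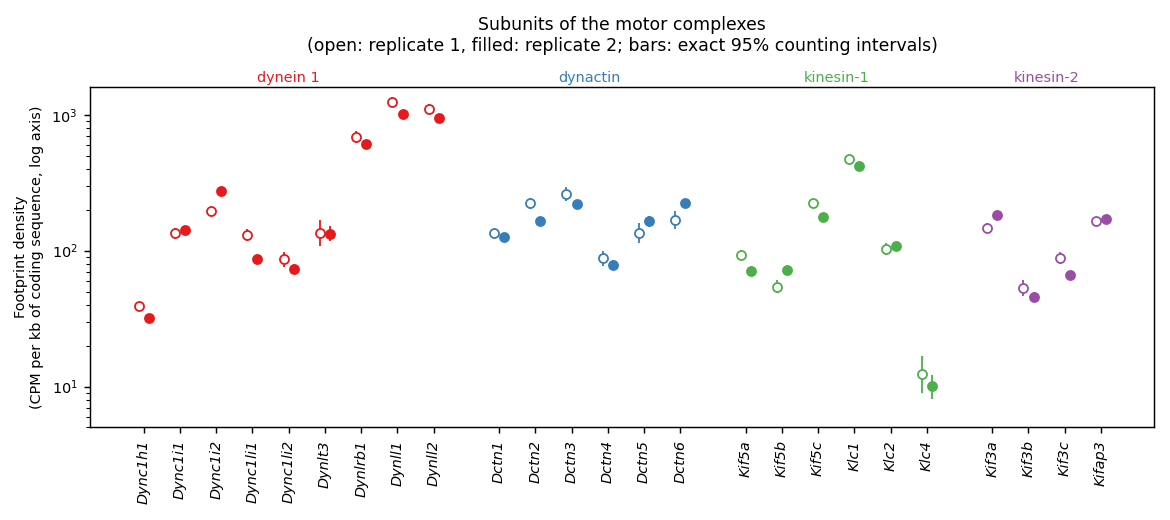
Footprint density (CPM per kilobase of coding sequence, log axis) of dynein 1, dynactin, kinesin-1 and kinesin-2 subunits; open points are replicate 1, filled points replicate 2, and bars are exact 95% counting intervals. Dync1h1, at 39.4 and 31.7, lies below every other dynein 1 and dynactin subunit drawn, and the light chains Dynll1 and Dynll2 lie between 950 and 1240.

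The LC8 light chains Dynll1 and Dynll2 bind many partners besides dynein and had the highest densities of all members. Dynll1 was at 1240 in replicate 1 and 1019 in replicate 2, and Dynll2 at 1105 and 950. The ratio of the pair was 1.12 (0.999 to 1.26) and 1.07 (0.995 to 1.16), so no difference beyond counting error was found on summed counts. On coding transcripts alone Dynll1 was the lower, at 0.636 times Dynll2 (0.545 to 0.741) and 0.621 times (0.565 to 0.684). Dynlrb1, a roadblock light chain, was at 684 and 612, and Dynlt3 at 136 and 133. These proteins have short coding sequences within longer transcripts, and the counts cover whole transcripts. Per kilobase of transcript, Dynll1 had a mean of 150.2 and Dync1h1 of 34.5, and Klc1 led the members at 331. On that scale Dctn4, Dync1li2 and Dynlt3 lay below Dync1h1, at means of 31.0, 25.5 and 21.7. The other dynein 1 and dynactin subunits in the plot of subunits lay above it. Across the 64 members, density fell with coding length at a Spearman's rho of -0.59, against -0.45 over all 13317 measured coding genes; the points share 2 libraries and genes are not independent replicates.

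Dynactin is the large complex that links dynein to cargo. Dctn3 had a density of 263 in replicate 1 and 220.2 in replicate 2, Dctn6 of 169 and 224, and Dctn2, which joins the shoulder to the filament, of 222 and 164. Dctn5 was at 136 and 164, Dctn1, the arm that touches the microtubule, at 135 and 126, and Dctn4 at 87.9 and 78.5. All 6 lay between percentiles 81.5 and 94.7 of the measured coding genes. Dctn1 exceeded Dync1h1 3.42 times in replicate 1 (3.13 to 3.74) and 3.99 times in replicate 2 (3.77 to 4.22). With the highest transcript alone this ratio was 0.768, since the footprints of Dctn1 were spread over 12 annotated transcripts. On that count Dctn4 lay above Dctn1, at 3.48 times in replicate 1 and 3.32 times in replicate 2. Dctn6 was then at 0.918 times Dync1h1 in replicate 1 (0.636 to 1.29) and 1.31 times in replicate 2. Dctn2 and Dctn4, which have 1 annotated transcript each, stood at 5.65 and 2.23 times Dync1h1 in replicate 1, and at 5.18 and 2.47 times in replicate 2. Per kilobase of transcript, Dctn4 lay below Dync1h1, at a mean of 31.0 against 34.5, and Dctn2 above it, at 122.

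Dynein 2 drives return transport inside cilia. Its heavy chain Dync2h1 had 40 and 160 footprints, or densities of 1.66 and 2.35, and Dync2li1 had 49 and 127 footprints, or 24.9 and 22.9. Dync1h1 exceeded Dync2h1 23.8 times in replicate 1 (17.3 to 33.5) and 13.5 times in replicate 2 (11.5 to 16.0). The kinesins of cilia and of Hedgehog signalling were as scarce: Kif19a had 12 and 60 footprints, Kif7 20 and 66, Kif9 7 and 27, Kif27 7 and 20, and Kif24 6 and 20. Their mean densities lay between 0.862 and 2.98, and that of Kif6 was 0.427. The other kinesins were Kifc3 at a density of 23.2 and 24.0, Kifc2 at 13.5 and 12.4, Kif26b at 10.8 and 10.7, and Kif26a at 4.36 and 2.39.

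The Dynlt1 light chains of dynein are encoded by several closely related genes, and their coding transcripts had similar counts. In replicate 2 the coding transcripts of Dynlt1a, Dynlt1b, Dynlt1c and Dynlt1f had 97, 99, 99 and 99 footprints, and the pseudogene Dynlt1-ps1 had 74. In replicate 1 they had 24, 21, 16 and 31, and the pseudogene 26. All 5 exact Poisson intervals overlapped in each library. Dynlt1c had 68 and 287 footprints in all, because 3 transcripts with retained introns added to its coding one. How the authors assigned fragments that match several genes is not given in the sources used here, so the level of a single Dynlt1 gene is uncertain.

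**Figure D3:**
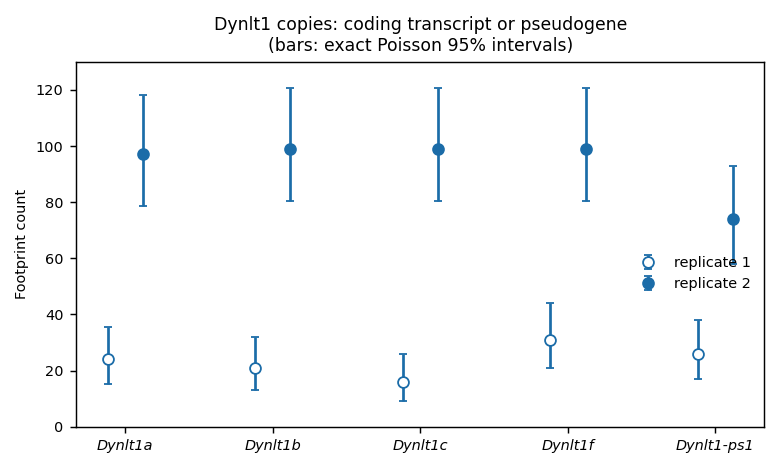
Footprint counts of the coding transcript of each Dynlt1 gene and of the pseudogene Dynlt1-ps1; open points are replicate 1, filled points replicate 2, and bars are exact Poisson 95% intervals. The 4 coding copies lie between 97 and 99 in replicate 2 and between 16 and 31 in replicate 1.

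The split among transcripts of a gene was uncertain in the same way. Kif21a-202 and Kif21a-203, which have equal transcript and coding lengths, had 46 and 42 footprints in replicate 1 and 147 and 164 in replicate 2. Coding transcripts held 85.1% ± 0.130 of the members' footprints (SD, n = 2), against 75.5% ± 1.09 over all genes. Kif21b was the transport kinesin with the lowest share, at 40.5% and 40.6%, because a transcript annotated as a target of nonsense-mediated decay, with a coding sequence of 4920 nucleotides, held 326 and 847 of its footprints. For Dynll1 the share was 44.5% and 48.1%, and for Dctn5 33.1% and 40.6%. Kif1b makes a long and a short protein with different cargo-binding tails. Its coding transcripts Kif1b-001 and Kif1b-003, which encode the long form, held 733 and 2153 footprints. The shorter Kif1b-007 held 147 and 409, and Kif1b-011 held 112 and 268. Kif1b-011 has a coding sequence of 1486 nucleotides and no annotated 5' untranslated region, so the form it belongs to is uncertain.

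The libraries of the 2 animals were compared gene by gene with an exact binomial test on the counts, scaled by TMM (trimmed mean of M values), with Benjamini-Hochberg adjustment across the 16427 genes that averaged 10 or more footprints. The test sets 2 libraries against each other and measures counting error alone. At an adjusted p under 0.05 it called 24 of the 64 members tested, against 17.4% of all genes. Of these, 7 were higher in replicate 2, against 5.95% of all genes, and 17 lower, against 11.5%. The members were counted more deeply than most genes, with a median mean count of 172.5 against 125.5 over measured coding genes. At a mean count of at least 100, 24 of 36 members were called, against 34.0% of all genes. With library totals as the scale 21 members were called against 19.0% of genes, 11 of them higher against 11.5% and 10 lower against 7.47%, so the split between directions depended on the scaling. The members called numbered 22 with no filter on counts (9.93% of genes), 21 on coding transcripts alone (18.2%), 20 after removal of the trend with density (15.5%) and 11 on the highest transcript (9.41%). The edgeR exact test with a common dispersion called 0 members, with 3 at an unadjusted p under 0.05, and 0.0670% of genes.

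**Figure D4:**
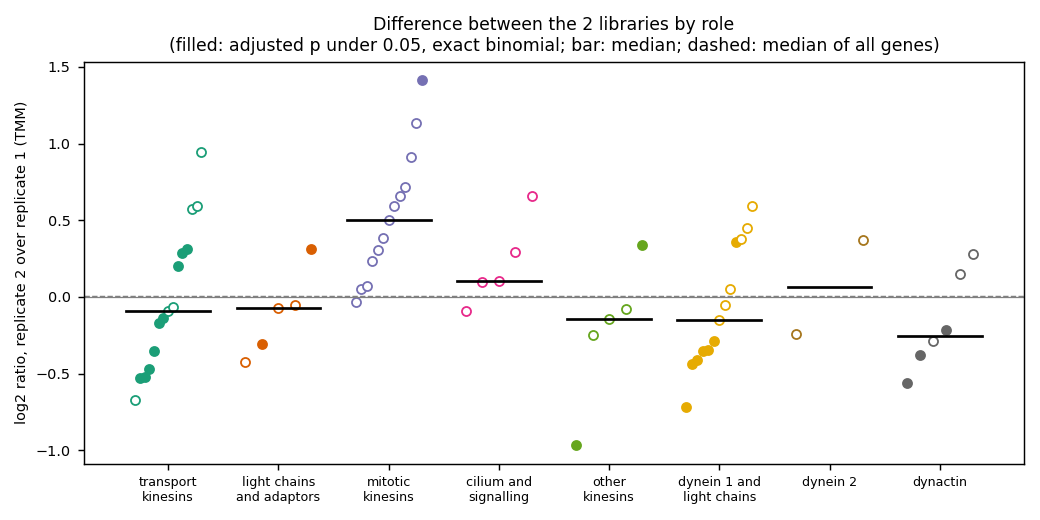
Log2 ratio of replicate 2 over replicate 1 (TMM) for each of the 64 members tested, by role; filled points had an adjusted p under 0.05 in the exact binomial test, bars are list medians and the dashed line is the median of all genes tested. Spindle kinesins lie mostly above 0, with a median of 0.50, and 4 of the 6 dynactin genes below, with a median of -0.25 that was 0.00 after removal of the trend with density.

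Transport kinesins went both ways. Kif5c had 1211 footprints (649 CPM) in replicate 1 and 2693 (512 CPM) in replicate 2, a log2 ratio of -0.47 (exact binomial test, adjusted p = 4.77e-18). Kif5a had 537 and 1152 footprints and a log2 ratio of -0.52, and Kif3c 392 and 834 and -0.53. Kif3b, Kif1b and Kif21b were also called lower, at -0.35, -0.14 and -0.17, but were not called with library totals, where Kif1c was called higher, at 0.72. Kif5b had 294 footprints (157 CPM) and 1103 (209.6 CPM), a log2 ratio of 0.29 (exact binomial test, adjusted p = 0.0174). Kif3a and Kif21a were also called higher, at 0.20 and 0.32. Kif1a, the member with the most footprints when transcripts were summed, had 1948 and 5735 footprints and a log2 ratio of -0.06 and was not called.

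Ratios between paralogs in the same library do not depend on the scaling. Kif5a was at 1.71 times Kif5b in replicate 1 (1.48 to 1.98) and at 0.979 times in replicate 2 (0.901 to 1.06). Kif5c was at 4.15 times Kif5b (3.65 to 4.73) and 2.46 times (2.29 to 2.64). On coding transcripts alone, which held 66.7% and 68.9% of the Kif5b footprints, Kif5a was at 2.57 times Kif5b (2.18 to 3.04) and 1.42 times (1.30 to 1.56), so that Kif5a was the higher in both libraries. On either count the intervals of the libraries were apart, with the neuronal heavy chains lower relative to Kif5b in replicate 2. Between the neuronal chains Kif5c and Kif5a the ratio was 2.42 (2.19 to 2.69) and 2.51 (2.34 to 2.69), and between Kif1a and Kif1b it was 1.56 (1.45 to 1.68) and 1.65 (1.58 to 1.72). With the highest transcript alone Kif1a was at 1.05 and 1.02 times Kif1b. Beside these, 9 of the 10 neuronal marker genes were lower in replicate 2, with a median log2 ratio of -0.35, and 6 were called lower and 1 higher. With library totals 6 of the 10 were lower, and after removal of the trend with density 5 were lower and the median was -0.02. The part of the neuronal share of the tissue in the Kif5 ratios was not tested.

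Among the spindle kinesins, 12 of the 13 tested were higher in replicate 2, against 50.5% of all genes, with a median log2 ratio of 0.50 against 0.01 over all genes. With library totals 13 of 13 were higher, against 61.9% of all genes. With TMM the exact binomial test called 1 of the 13, Kif20a, against 17.4% of all genes. At an unadjusted p under 0.05 it found 2 of the 13, against 4547 of all 16427 genes. Kif20a had 12 footprints in replicate 1 and 103 in replicate 2, a log2 ratio of 1.41 (exact binomial test, adjusted p = 0.00231). Kif20a is a kinesin of the cleavage furrow. Kif11, which slides spindle microtubules apart, had 16 and 95 footprints, a log2 ratio of 0.91 and a value short of the threshold (exact binomial test, adjusted p = 0.0599); with library totals it was called, at 1.03. Kif4 was the member with a log2 ratio below 0, at -0.03 with 15 and 45 footprints. Over all genes the libraries' log2 ratio fell with density, for this trend taken per kilobase of the longest transcript. After removal of that trend the spindle median was 0.23, with 11 of 13 above 0. Beside this, 11 of the 12 marker genes of dividing cells were higher in replicate 2, with a median of 0.60; their part in the result was not tested.

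Of the dynein and dynactin genes, Dync1h1 had a log2 ratio of -0.44 (exact binomial test, adjusted p = 1.92e-13). Dync1li1 had 383 and 714 footprints and a log2 ratio of -0.72, and Dync1li2, Dynll1, Dynll2 and Dynlrb1 were called lower at -0.35, -0.41, -0.34 and -0.29. Dync1i2 had 696 and 2752 footprints and was called higher, at 0.36, while its neuronal paralog Dync1i1 had 486 and 1439 footprints and a ratio of -0.06. Dync1i2 stood at 1.45 times Dync1i1 in replicate 1 (1.29 to 1.63) and 1.93 times in replicate 2 (1.81 to 2.06); with the highest transcript alone the order turned, at 0.748 and 0.834 times. In dynactin, Dctn2, Dctn3 and Dctn1 were called lower, at -0.56, -0.38 and -0.22. With library totals Dync1li2, Dynlrb1, Dctn3 and Dctn1 were not called, and Dynlt1c and Dctn6 were called higher, at 0.58 and 0.41. With the trend with density removed, Dynll1 and Dynll2 were at -0.11 and -0.07 and Dynlrb1 and Dctn1 at 0.12 and 0.06, none of them called. The dynactin median of -0.25 was -0.13 with library totals and 0.00 after removal of the trend with density. Dctn6 had 185 and 692 footprints and a log2 ratio of 0.28 with TMM, short of the threshold.

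In the remaining lists, 2 of 5 kinesin adaptors and light chains tested and 2 of 5 other kinesins were called, against 17.4% of all genes. Klc1 was called lower, with 1646 and 4090 footprints and a log2 ratio of -0.31, but turned to 0.11 and was not called after removal of the trend with density. Kif1bp was called higher, with 247 and 944 footprints and a ratio of 0.31. Kif2a was called higher, with 379 and 1477 footprints and a ratio of 0.34, and Kif26a lower, with 46 and 71 footprints and a ratio of -0.97. The exact binomial test called 0 of the 5 cilium and signalling kinesins tested and 0 of the 2 dynein 2 genes. At an unadjusted p under 0.05 it found 0 in either list, against 4547 of all 16427 genes. The edgeR exact test called 0 members of any list.

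Genes that work with the motors were read from the same test, in which 5.95% of all genes were called higher and 11.5% lower. With library totals these shares were 11.5% and 7.47%. Of 15 dynein regulators and adaptors tested, 1 was called higher and 1 lower, with a median log2 ratio of 0.06; with library totals 5 were called higher and 1 lower, with a median of 0.18. Pafah1b1 (Lis1), the regulator of dynein mutated in lissencephaly, had the highest density, at 394 and 447. Hap1, which links huntingtin to dynactin, was the gene called lower, at -0.38, and Ndel1, a partner of Lis1, the gene called higher, at 0.53. Of the 6 further dynactin subunits, Actr1a and Actr10 were called lower, at -0.50 and -0.45, and the capping proteins Capza1 and Capza2 higher, at 0.70 and 0.41. Capza1, Capza2 and Capzb also cap actin filaments outside dynactin.

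Of 20 kinesin cargo adaptors, 2 were called higher and 6 lower, with a median log2 ratio of -0.07, and with library totals 3 higher and 4 lower. Arl8a, a lysosomal GTPase, and Fez1, a kinesin-1 adaptor, had mean densities of 451 and 271. Arl8b, the paralog of Arl8a, which recruits kinesins to lysosomes, had 228 and 411 footprints and a ratio of -0.77. Of 12 spindle partners, 3 were called higher and none lower, with a median of 0.52, and with library totals 5 were called higher. Of the 3 called with TMM, Zwilch, a kinetochore protein, had 4 and 57 footprints and a ratio of 1.99, Racgap1 had 61 and 294 and 0.64, and Prc1 55 and 254 and 0.58. Cenpe, a kinesin whose symbol the naming rule does not take, had 16 and 56 footprints, a density of 1.16 and 1.43, and was not called. Of 19 genes of intraflagellar transport, 2 were called higher and 1 lower, with a median of 0.18, and with library totals 3 higher and 1 lower. Wdr34, an intermediate chain of dynein 2, was the lower one, at -0.58.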

How the data were processed

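The authors deposited 1 table of whole-number footprint counts per transcript, with 1 column per replicate, not normalized, and annotated transcript and coding lengths. Per the labels' protocols, polysome fractions were digested with RNase I and fragments of 25 to 35 nucleotides were sequenced. The submitters' processing notes name Trimmomatic 0.36, Bowtie2 2.2.6, SAMtools and GRCm38.p4. The counter, strand use and treatment of shared or duplicate fragments are not given in the sources used here.

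Counts of a gene's transcripts were summed, assuming that each fragment was counted once. CPM used library totals. The libraries were compared with an exact binomial test (SciPy 1.17.1) on TMM sizes from edgeR 4.0.16, computed on genes averaging 10 or more counts, and DESeq2 1.42.0 size factors were an alternative. A quasi-likelihood fit was not possible with 1 group. Log2 ratios used a prior of 0.5 CPM. Shares, CPM values and ratios of counts have exact (Clopper-Pearson) 95% intervals. The density trend was a running median over 801 genes ranked by CPM per kilobase of the longest transcript, not of the coding sequence. The test was checked on simulated counts with Poisson error alone, so the check does not cover variation between animals. Named genes were, per list, the 3 of highest density, all called genes (up to 4 outside the members), all members under the count minimum and all subunits in ratios; 1 gene that this rule names is not reported here. The members and lists were chosen with earlier results of these data known.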

Additional observations from a re-analysis of the deposited data

How the results depend on the processing

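The exact binomial test on TMM sizes called 24 members; it called 11 with the highest transcript per gene, a setting that holds fewer counts by construction. The edgeR exact test with the common dispersion called 0, with 3 members at an unadjusted p under 0.05; its dispersion came from the same libraries. The other settings called 20 to 24. Of the 24 members, 8 (Dctn2, Dync1h1, Dync1li1, Kif20a, Kif26a, Kif3c, Kif5a and Kif5c) kept their call in every setting they could enter but the edgeR test. All settings used the same 2 libraries. The share of all called genes that kept their call was not computed, so this count has no reference. With the density trend removed, Dctn1, Dynlrb1 and Klc1 turned to 0.063, 0.12 and 0.11 on the log2 scale, and with the highest transcript Kif1b turned to 0.018; none was called there. The transport to spindle ratio of 24.0 was 16.2 with the highest transcript and 7.14 with Kif2a and Cenpe added; single replicates gave 18.9 to 29.2. With the highest transcript, Dctn1 over Dync1h1 was 0.768, intermediate chains over Dync1h1 2.06, and light over heavy chains of kinesin-1 0.616; the last was 2.60 with transcript length and 1.95 with coding transcripts alone. Single replicates gave 3.42 to 3.99, 8.35 to 13.0 and 1.59 to 1.68. At 50 footprints in both libraries, 34 members were detected. Dync1h1 ranked 3 among long coding sequences in replicate 2 alone; this rank, the count of spindle kinesins higher in replicate 2 and the paralog ratios on other transcript sets were added after seeing the data, and no spindle kinesin reached a mean count of 100. Replicate 1, the shallower library, limits the spindle and cilium kinesins. No paired analysis was possible because the animals form a single group.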

Other observations

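The name pattern also matched 5 symbols without a coding transcript. Besides Dynlt1-ps1, Kif22-ps had 1 footprint in replicate 1 and 3 in replicate 2, Kifc5c-ps had 0 and 5, and Kif16bos and Kif4-ps had none. Retained introns held 6.68% ± 0.290 of the members' footprints, transcripts marked for nonsense-mediated decay 3.54% ± 0.0137, and processed transcripts 4.68% ± 0.174 (SD, n = 2). The members had 293 annotated transcripts, of which 166 were coding, and 24 members had a single transcript. Across the 64 tested members, density and the number of annotated transcripts had a Spearman's rho of 0.29, against 0.07 over all measured coding genes, as a description over 2 shared libraries.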
